A study of Glycine max with 36 samples.

Results

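DREB1-like and SRC1, soybean genes named for drought and cold, were followed in leaflets over 8 h after spraying with a herbicide or with water. The members were all probes that the array's annotation assigns to one of these genes alone. These are 2 of the 527 genes that the annotation names singly. They are covered by 7 of 19200 probes, 4 for DREB1-like (Gm04716, Gm04728, Gm04831 and Gm11978) and 3 for SRC1 (Gm00253, Gm04916 and Gm04959). The genes had been chosen on the fitted difference between bentazon and water at 8 h, with earlier results known, so that difference is given as a description without a test. Of the 7 probes, 6 had enough values to be tested, and Gm00253 had not.

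DREB1 factors, also called CBF, are transcription factors with an AP2 domain that bind the dehydration-responsive element in promoters. In Arabidopsis their genes are switched on by cold, with a response that varies with the time of day, and their targets include dehydrins and other protective proteins. SRC1 belongs to the soybean genes first described as regulated by cold. Atrazine, a triazine, and bentazon, a benzothiadiazinone, both block electron transport at photosystem II in the chloroplast.

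Plants of the cultivar Williams 82 were grown at 25 °C with a 16 h day and sprayed at about 2 weeks. Each was misted with atrazine, with bentazon (22 to 25 mM, a range recorded for both together), or with water that held 1% by volume of the adjuvant Herbimax, and leaflets were taken 1, 2, 4 and 8 h later. The 3 leaflets of the first trifoliate leaf were pooled for each RNA. The 12 RNAs of each of 3 biological replicates were compared on two-colour cDNA arrays in a closed loop of 12 arrays, 36 in all. The adjuvant is recorded for the water spray only, so effects of adjuvant and herbicide cannot be told apart. The clock time of spraying was not used here, and hours after spraying cannot be told apart from time of day. Nothing in the labels says that the replicates came from separate sowings, so p values measure the spread between these arrays. The main fit treated the 36 arrays as independent, although each RNA was hybridised on more than 1 of them. An alternative fit allowed for variance between RNA extracts, at a ratio of 0.2 to that of arrays.

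The deposited values are log ratios, taken as log2, whose numerator is not given in the sources used here. They were signed so that the probe of PDR12, an ABC transporter gene, is positive for bentazon against water at 2 h. This equals reading each array as its first-named RNA over its second-named one. It is not known which sign stands for more transcript. If the sign were turned, every value below would change sign together, and no test would change. A ratio gives no absolute level, so the labelled tissue could not be checked against marker genes, and no probe's level can be set against another's. In pooled leaflets, fewer cells of a type and less RNA per cell cannot be told apart. Each array held 16648 to 18484 values and 17062 probes were tested. Precision is limited by the number of arrays.

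The DREB1-like probe Gm11978 had one of the widest ranges on the array. Its fitted levels over the 12 RNAs spanned 5.08 on the log2 scale, against a median span of 1.02 over all tested probes, and 99.6% of probes had a smaller span. Levels are given against the mean of the 12 RNAs, with the SD over the 3 loops solved separately. In water the levels of Gm11978 at 1, 2, 4 and 8 h were -1.16 (SD 0.725, n = 3), -0.99 (SD 0.46), -1.76 (SD 0.787) and 1.10 (SD 0.82). In atrazine the 4 levels were -0.50 (SD 1.02), -0.21 (SD 0.232), 0.43 (SD 0.622) and 3.32 (SD 1.04). In bentazon the 4 levels were -1.10 (SD 1.0), -1.60 (SD 0.571), -0.74 (SD 1.27) and 3.23 (SD 0.235). The 8 h RNAs therefore held the most positive levels in each of the 3 treatments. In the order of the 12 levels, atrazine and bentazon at 8 h came first and differed from each other by 0.09, and water at 8 h came next. Of the 11 steps between neighbours in that order, only the one from bentazon to water at 8 h exceeded 2 standard errors, and that step is the difference known when the genes were picked. The other neighbours did not differ beyond their error, down to bentazon at 2 h and water at 4 h, which came last.

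**Figure D1:**
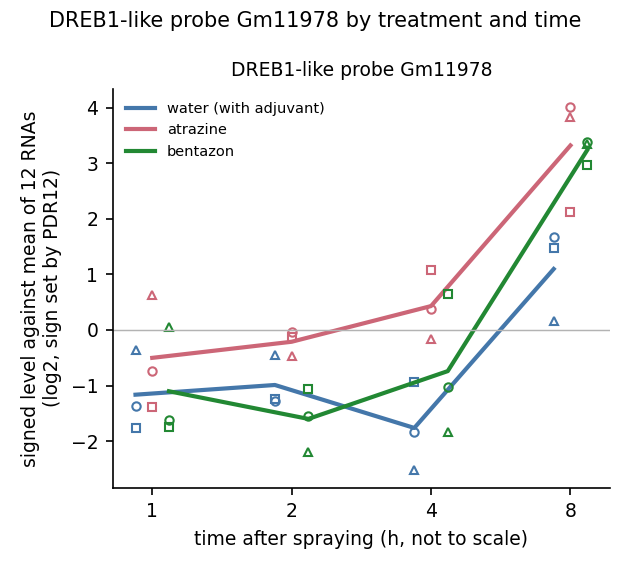
Level of the DREB1-like probe Gm11978 (log2, against the mean of 12 RNAs) by hours after spraying (time axis not to scale), with water, atrazine and bentazon in 3 colours. Lines join fitted levels, and circles, triangles and squares are replicates 1, 2 and 3 solved separately; the fitted levels at 8 h are 1.10 in water, 3.32 in atrazine and 3.23 in bentazon.

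Atrazine and water were hybridised to each other directly at 2 and 4 h. At 4 h the atrazine over water ratio of Gm11978 was 2.32, 2.10 and 1.98 in replicates 1, 2 and 3. All 3 arrays lay close together and were positive. The fitted difference was 2.19 ± 0.322 (SE), with a limma adjusted p of 7.46e-06 by Benjamini-Hochberg over all tested probes. At 2 h the 3 arrays, read as water over atrazine, gave -1.12, -0.23 and -1.16. The fitted atrazine minus water difference was 0.78 (95% interval 0.12 to 1.43, limma adjusted p = 0.174), which was not called. At 1 h it was 0.66 (adjusted p = 0.482), also not called.

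At 8 h the difference between atrazine and water for Gm11978 ran through other RNAs of the loop. The replicates gave 2.34, 3.67 and 0.65, all positive but widely spread. The fitted value was 2.22 ± 0.435, with a limma adjusted p of 0.000651. Its path through the loop crosses the water and bentazon arrays at 8 h on which the genes were chosen, so it is not independent of that choice. Without replicate 2 it was 1.5 with an adjusted p of 0.0812, and so was no longer called.

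For bentazon the probe Gm11978 did not pass the test at 1, 2 or 4 h. The fitted differences from water were 0.06, -0.61 and 1.02, with limma adjusted p values of 0.973, 0.476 and 0.12. At 4 h the replicates gave 0.80, 0.67 and 1.59, all positive, and with each loop solved alone this difference was called (adjusted p = 0.0365). At 8 h, where bentazon and water shared arrays, the water over bentazon ratios were -1.60, -3.44 and -1.54. The difference was 2.14 (95% interval 1.48 to 2.79) as bentazon minus water. This is the value known when the genes were picked.

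The herbicides themselves shared arrays at each of the 4 times, so they can be compared directly. The atrazine over bentazon ratios of Gm11978 at 2 h were 1.62, 1.47 and 0.89, all positive. The fitted difference was 1.39 ± 0.322 with a limma adjusted p of 0.00412. At 4 h the arrays, read as bentazon over atrazine, gave -1.28, -1.93 and -0.48, and the fitted atrazine minus bentazon difference was 1.17 ± 0.322 (adjusted p = 0.0162). The difference was thus positive on all 6 arrays at 2 and 4 h. The PDR12 probe that sets the sign was negative in the same comparisons, at -5.82 and -4.64. At 8 h the bentazon over atrazine arrays gave -0.51, -0.73 and 0.80 and did not share a sign. The difference there was 0.09 with a 95% interval of -0.57 to 0.74 (adjusted p = 0.923), which leaves room for differences of either sign. At 1 h it was 0.60 (adjusted p = 0.322). The calls at 2 and 4 h were both lost without replicate 1 (1.33 with adjusted p = 0.0881, and 1.06 with 0.19) and without replicate 2 (1.22 with 0.0538, and 0.91 with 0.153).

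The water course of Gm11978 alone held a large step between 4 and 8 h. The arrays that put water at 4 h over water at 8 h gave -3.38, -2.92 and -2.46. All 3 agreed in sign and size, and the fitted 8 h minus 4 h difference was 2.86 ± 0.322 (limma adjusted p = 6.21e-07). From 1 to 8 h the water difference was 2.26 ± 0.575 (adjusted p = 0.0379). That call was lost without replicate 1 (1.88, adjusted p = 0.738), without replicate 3 (1.77, adjusted p = 0.174) and without the 4 h against 8 h water array of replicate 2 (2.26, adjusted p = 0.0555). The differences from 1 to 2 h (0.17) and from 2 to 4 h (-0.77) were not called, with adjusted p values of 0.999 and 0.965. The 8 h water RNA also entered the comparison that picked the genes. The path of the 1 to 8 h difference further crosses the arrays of that comparison, so that difference is not independent of the choice.

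In atrazine, the 8 h RNA was hybridised directly against that at 1 h, and the Gm11978 ratios were 4.86, 2.96 and 3.46. These included the most positive value of the probe on any of the 36 arrays. The fitted difference was 3.82 ± 0.322, with a limma adjusted p of 1.45e-10. The arrays on which the genes were chosen enter this value only through the dye term. From 4 to 8 h the loop runs through the 8 h water and bentazon RNAs and those arrays, so that difference is not independent of the choice. It was 2.89 ± 0.55 (adjusted p = 0.00118), from replicate values of 3.64, 3.99 and 1.04. This second call was lost without replicate 1 (2.52, adjusted p = 0.0908) and without replicate 2 (2.34, adjusted p = 0.0868). The steps from 1 to 2 h (0.29) and from 2 to 4 h (0.64) were not called, with adjusted p values of 0.939 and 0.902.

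In bentazon the Gm11978 difference from 1 to 8 h was 5.0, 3.30 and 4.71 in the 3 replicates and 4.34 ± 0.505 in the fit (limma adjusted p = 1.3e-06). From 4 to 8 h it was 4.41, 5.19 and 2.31, and 3.97 ± 0.55 in the fit (adjusted p = 4.74e-05). Both use the 8 h bentazon RNA that picked the genes. The path from 4 to 8 h also crosses the 8 h water and bentazon arrays, so neither difference is independent of the choice. The steps from 1 to 2 h (-0.50, adjusted p = 0.915) and from 2 to 4 h (0.86, adjusted p = 0.11) were not called. The change from 1 to 8 h in atrazine exceeded that in water by 1.56 ± 0.55 (95% interval 0.44 to 2.68), with an adjusted p of 0.115. It was called with array weights (1.41, adjusted p = 0.03) and without replicate 3 (2.20, adjusted p = 0.0425), so the outcome turns on these choices. Its path crosses the 8 h water and bentazon arrays that picked the genes, so it is not independent of their choice. The same quantity for bentazon over water was 2.07 (95% interval 1.19 to 2.96), a description only.

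SRC1 was measured by 2 tested probes that moved together. Fitted levels spanned 3.08 for Gm04916 and 3.62 for Gm04959, and 96.5% and 98.1% of all tested probes had a smaller span. In water the levels of Gm04959 at 1, 2, 4 and 8 h were -0.15 (SD 0.117, n = 3), -0.10 (SD 0.851), -1.65 (SD 0.895) and -0.22 (SD 0.382). In atrazine they were 0.63 (SD 0.222), -0.30 (SD 0.586), -0.89 (SD 0.617) and 1.64 (SD 0.381). In bentazon they were -0.41 (SD 0.417), -0.39 (SD 0.409), -0.12 (SD 0.224) and 1.97 (SD 0.371). Both herbicides at 8 h stood at the positive end, and water at 4 h stood at the negative end.

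The other tested SRC1 probe, Gm04916, gave nearly the same order. Its levels in water were 0.19 (SD 0.107), 0.05 (SD 0.718), -1.57 (SD 0.87) and -0.32 (SD 0.446) at 1, 2, 4 and 8 h. In atrazine they were 0.39 (SD 0.268), -0.30 (SD 0.588), -0.70 (SD 0.94) and 1.31 (SD 0.375), and in bentazon -0.34 (SD 0.657), -0.32 (SD 0.292), 0.11 (SD 0.316) and 1.51 (SD 0.0762). In both probes bentazon at 8 h came first and atrazine at 8 h second, and the step between them (0.20 for Gm04916, 0.33 for Gm04959) was within its error. Next came atrazine at 1 h, below atrazine at 8 h by 0.92 and 1.01, a step beyond 2 standard errors. The 8 neighbouring steps that followed, down to atrazine at 4 h, were each within 2 standard errors. The last step, from atrazine to water at 4 h, exceeded 2 standard errors (0.87 and 0.76), although the replicates' levels of the 2 RNAs overlapped.

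**Figure D2:**
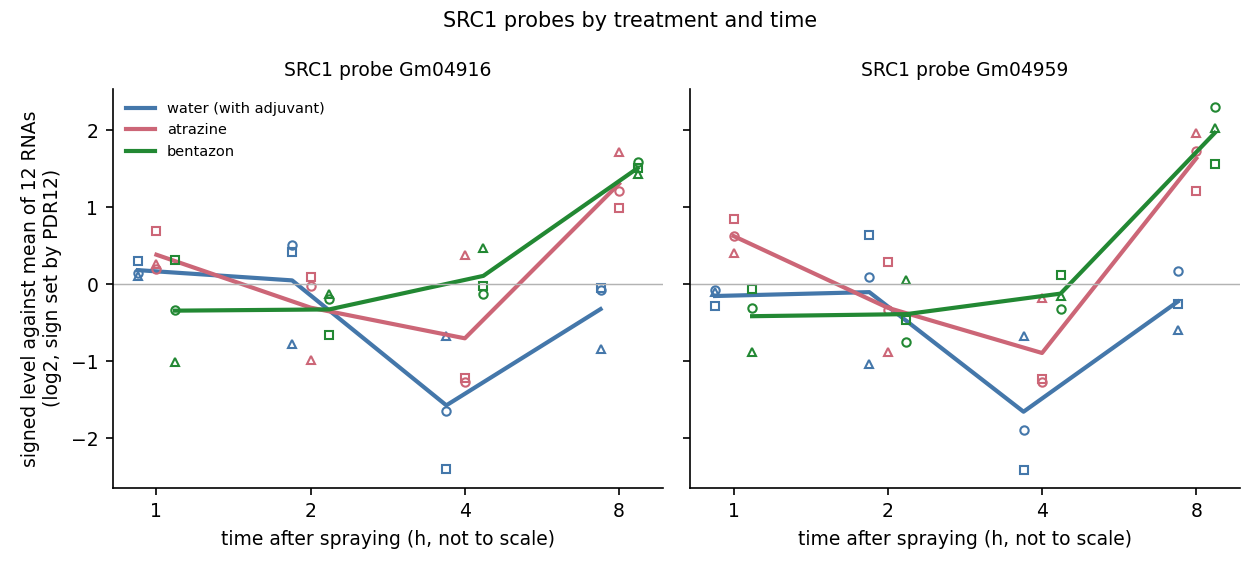
Levels of the SRC1 probes Gm04916 and Gm04959 (log2, against the mean of 12 RNAs) by hours after spraying (time axis not to scale), with water, atrazine and bentazon in 3 colours; lines join fitted levels and circles, triangles and squares are replicates 1, 2 and 3 solved separately. At 4 h water has the most negative fitted level in both panels (-1.57 and -1.65), and at 8 h both herbicides lie above all other RNAs.

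Among the tests of herbicide against water, the SRC1 probes passed at 4 h for bentazon. The replicates gave 1.52, 1.14 and 2.39 for Gm04916 and 1.57, 0.51 and 2.53 for Gm04959, all positive. The fitted bentazon minus water differences were 1.68 ± 0.431 and 1.53 ± 0.448, with limma adjusted p values of 0.00807 and 0.02. At 4 h the atrazine over water arrays read 0.30, 1.06 and 1.24 for Gm04916 and 0.57, 0.77 and 1.38 for Gm04959. Those differences were 0.87 (adjusted p = 0.0557) and 0.76 (adjusted p = 0.113), and neither was called, although both were on direct arrays only, when loops were solved separately, with array weights, and without the 4 h against 8 h water array of replicate 2 (0.72 to 0.93, adjusted p from 0.0121 to 0.04). Without replicate 2, Gm04959 was called too (0.90, adjusted p = 0.0231). The bentazon calls were lost without replicate 1 (1.76 with adjusted p = 0.165, and 1.52 with 0.27) and without replicate 3 (1.33 with 0.0749, and 1.04 with 0.201).

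At 8 h the atrazine minus water differences of SRC1 were 1.28, 2.56 and 1.04 for Gm04916 and 1.56, 2.55 and 1.47 for Gm04959 in the 3 replicates. All 6 values were positive. The fitted values were 1.63 ± 0.431 (limma adjusted p = 0.0105) and 1.86 ± 0.448 (adjusted p = 0.00494). Their path crosses the 8 h water and bentazon arrays that picked the genes. Without replicate 1 they were 1.80 and 2.01, with adjusted p values of 0.133 and 0.0993, and so were not called. The water over bentazon arrays at 8 h read -1.73, -2.26 and -1.52 for Gm04916 and -2.18, -2.33 and -1.62 for Gm04959. As bentazon minus water the fitted values were 1.83 (95% interval 1.18 to 2.48) and 2.19 (95% interval 1.51 to 2.87), given as a description.

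At 1 and 2 h neither SRC1 probe passed the test against water for either herbicide. For Gm04916 the 4 differences lay between -0.53 and 0.20, and for Gm04959 between -0.29 and 0.78. Between the herbicides no SRC1 difference was called. The nearest was Gm04959 at 1 h, where the atrazine over bentazon arrays gave 0.89, 1.56 and 1.11 and the fit 1.04 ± 0.332 (limma adjusted p = 0.0585). At 4 h the atrazine minus bentazon differences were -0.81 (95% interval -1.46 to -0.16) and -0.77 (-1.45 to -0.09), with adjusted p values of 0.0998 and 0.137. For Gm11978 the same contrast had the opposite sign and was called, as given above. At 8 h they were -0.20 (95% interval -0.85 to 0.45) and -0.33 (-1.01 to 0.35). At 1 h Gm04959 was called in 6 of 16 alternatives (0.95 to 1.19 in those, lowest adjusted p = 0.0115). At 4 h both probes were called without replicate 2 (-1.17 with adjusted p = 0.00735, and -1.15 with 0.00773), and Gm04916 also without the 4 h against 8 h water array of replicate 2 (-0.87, 0.0353).

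The water course of SRC1 rested on arrays that did not agree. The water 4 h over 8 h ratios were -1.64, 0.18 and -2.30 for Gm04916 and -2.12, 0.21 and -1.94 for Gm04959. Replicate 2 lay on the other side of 0 from replicates 1 and 3 in both probes, whereas on the same array Gm11978 read -2.92. The fitted 8 h minus 4 h differences of SRC1 were 1.25 ± 0.319 (limma adjusted p = 0.0114) and 1.43 ± 0.332 (adjusted p = 0.00521). Without that one array they were 1.91 (adjusted p = 0.000713) for Gm04916 and 2.11 (adjusted p = 0.00045) for Gm04959. Without replicate 1 they were 1.09 (adjusted p = 0.307) and 1.11 (adjusted p = 0.317), and without replicate 3 they were 0.70 (adjusted p = 0.285) and 1.07 (adjusted p = 0.0926).

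From 2 to 4 h in water the SRC1 replicates gave -2.15, 0.11 and -2.82 for Gm04916 and -1.98, 0.37 and -3.05 for Gm04959. The fitted differences of -1.62 and -1.55 were not called (limma adjusted p = 0.958 for both), in a comparison in which no probe of the array was. From 1 to 8 h the water differences were -0.51 and -0.07, with adjusted p values of 0.716 and 0.971. The 1 h and 8 h water levels of SRC1 were thus not told apart. Between the same RNAs the Gm11978 difference was 2.26 (3.03, 0.52 and 3.24 in the replicates), a call lost in several alternatives. The path of this comparison crosses the arrays that picked the genes, and differences between probes were not tested.

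In atrazine, SRC1 was positive at 8 h against both 1 h and 4 h. The direct 8 h over 1 h arrays read 0.94, 1.47 and 0.35 for Gm04916 and 1.05, 1.84 and 0.57 for Gm04959, all positive. The fitted differences were 0.92 ± 0.319 (limma adjusted p = 0.0248) and 1.01 ± 0.332 (adjusted p = 0.0183). From 4 to 8 h they were 2.01 ± 0.545 (adjusted p = 0.0262) and 2.53 ± 0.567 (adjusted p = 0.00609), from replicate values of 1.34 to 2.48 and 2.14 to 3.00. The path from 4 to 8 h crosses the arrays that picked the genes, and the direct 1 to 8 h value uses them only through the dye term. All 4 of these calls were lost without replicate 1, where the differences were 0.88, 0.96, 1.77 and 2.29 and the adjusted p values 0.213, 0.184, 0.37 and 0.226. Without replicate 2 the 1 to 8 h difference of Gm04916 was 0.65 (adjusted p = 0.057), and without replicate 3 its 4 to 8 h difference was 1.91 (adjusted p = 0.106), neither of them called.

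In bentazon the SRC1 difference from 1 to 8 h was 1.92, 2.43 and 1.20 in the 3 replicates of Gm04916 and 2.61, 2.90 and 1.63 in those of Gm04959. The fitted values were 1.85 ± 0.501 (limma adjusted p = 0.0111) and 2.38 ± 0.521 (adjusted p = 0.00195). From 4 to 8 h Gm04959 was called at 2.09 ± 0.567 (adjusted p = 0.0237), and Gm04916, at 1.40 ± 0.545, was not (adjusted p = 0.132). All of these use the 8 h bentazon RNA. The path from 4 to 8 h also crosses the 8 h water and bentazon arrays that picked the genes. Without replicate 1 the calls were lost, at 1.82 (adjusted p = 0.233) for Gm04916 from 1 to 8 h, and at 2.26 (0.136) and 1.82 (0.434) for Gm04959 from 1 to 8 h and from 4 to 8 h.

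The change from 1 to 8 h was also set against bentazon, whose 8 h RNA helped to pick the genes, so the sign of this difference is not independent of the choice. For SRC1 the replicates gave -0.91, -0.98 and -0.90 for Gm04916 and -1.51, -1.35 and -1.26 for Gm04959. All 6 values were negative, and the fitted values of -0.93 (limma adjusted p = 0.256) and -1.37 (adjusted p = 0.081) did not pass the test. That of Gm04959 was called in 4 of 15 alternatives (-1.67 to -1.37, lowest adjusted p = 0.00409). Against water, the atrazine change from 1 to 8 h exceeded that of water by 1.43 (adjusted p = 0.151) and 1.08 (adjusted p = 0.337), which were not called. The path of these values crosses the 8 h water and bentazon arrays that picked the genes. For bentazon over water the values were 2.36 and 2.45, as a description.

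The other 3 DREB1-like probes did not share the course of Gm11978. Their fitted levels spanned 1.37 (Gm04716), 0.53 (Gm04728) and 1.04 (Gm04831), against the median span of 1.02 over all probes. Their ratios on single arrays ran from -1.61 to 1.05 for Gm04716, from -0.56 to 0.82 for Gm04728 and from -1.02 to 1.00 for Gm04831. At 8 h their atrazine minus water differences were -0.13 (95% interval -0.68 to 0.42), -0.04 (-0.59 to 0.50) and -0.38 (-1.06 to 0.30), beside 2.22 (1.34 to 3.11) for Gm11978. The path of this comparison crosses the arrays that picked the genes, and differences between probes were not tested. From 1 to 8 h in atrazine they were -0.13, -0.08 and -0.05. Probes of this array are cDNA spots and their annotation is old, and whether all 4 spots hold the same transcript was not tested. No probe sequence was used here.

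**Figure D3:**
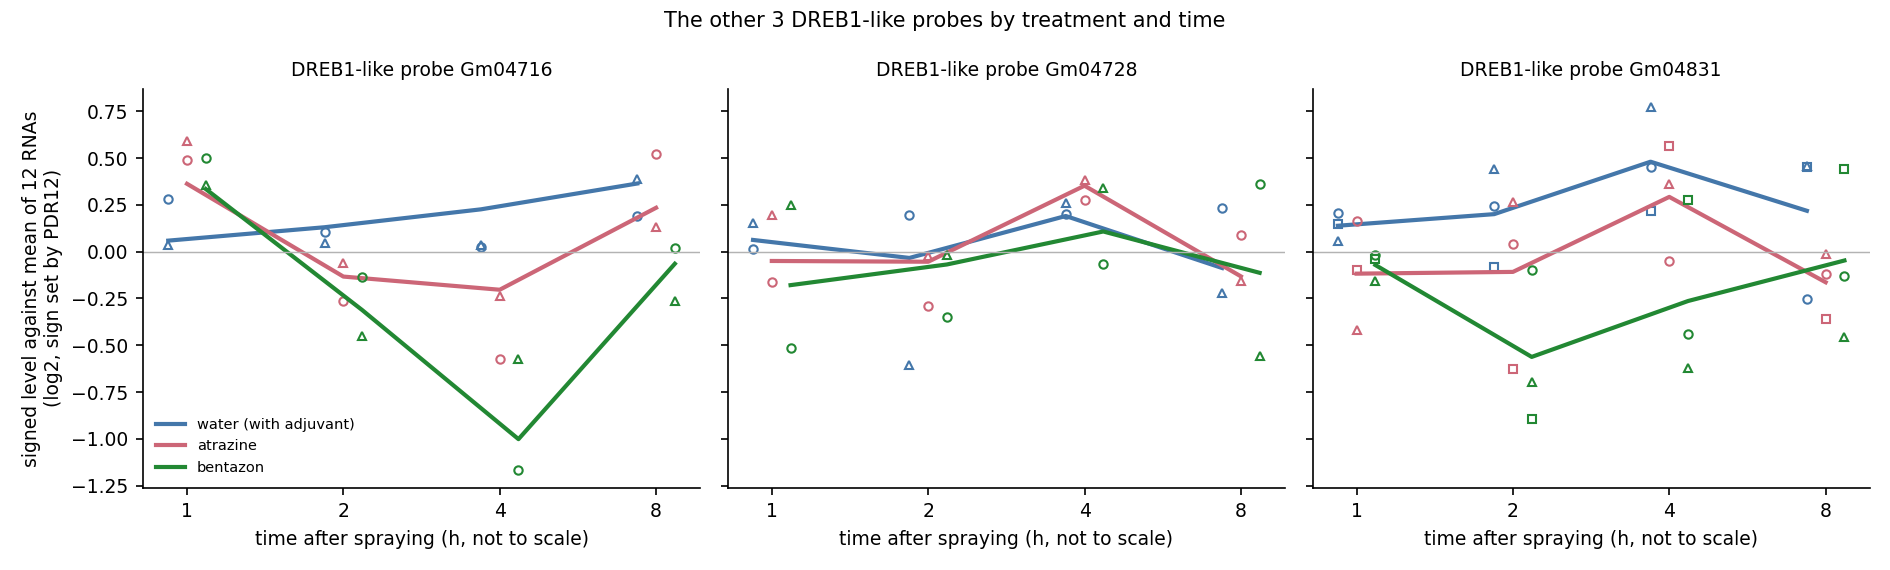
Levels of the DREB1-like probes Gm04716, Gm04728 and Gm04831 (log2, against the mean of 12 RNAs) by hours after spraying (time axis not to scale), in colours for water, atrazine and bentazon; lines join fitted levels and open points are replicates solved separately. Gm04716 and Gm04728 lack 1 array value and so show 2 replicates; the most negative fitted level is that of Gm04716 in bentazon at 4 h (-1.0).

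Of these probes, Gm04716 stood apart at 4 h in bentazon. Its bentazon over atrazine arrays at 4 h read -0.57, -0.13 and -1.61, and the 2 replicates with a complete loop gave bentazon minus water differences of -1.19 and -0.61. The fitted value against water was -1.23 ± 0.27 (limma adjusted p = 0.00235), the side opposite to that of SRC1 at the same time. Atrazine minus bentazon was 0.80 ± 0.2 (adjusted p = 0.00836), and the bentazon change from 2 to 4 h was -0.69 ± 0.2 (adjusted p = 0.0351). The fit used 35 arrays, since this probe lacked 1 value. Without replicate 1 none of the 3 was called (-1.23, 0.90 and -0.53, with adjusted p values of 0.122, 0.12 and 0.468), and without replicate 3 the last 2 were not (0.46 and -0.58, with 0.197 and 0.155). Gm04728, which also lacked 1 value, and Gm04831 were not called in any comparison. The bentazon minus water differences of Gm04831 were -0.76 at 2 h and -0.74 at 4 h, with adjusted p values of 0.188 and 0.145. At 4 h this probe was called with array weights (-1.04, adjusted p = 0.00459) and without replicate 3 (-1.15, 0.0279), and its atrazine minus bentazon difference at 4 h was called with array weights (0.75, 0.00582).

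The remaining SRC1 probe, Gm00253, had a value on 26 of 36 arrays and on only 1 of the 3 arrays that compared water at 1 and 2 h. Its ratios lay between -1.23 and 0.92. On the water over bentazon arrays at 8 h it read 0.25, 0.62 and 0.40, whereas both other SRC1 probes were negative on all 3 of these arrays, which are those that picked the genes. The atrazine 8 h over 1 h arrays gave 0.16 and 0.20, with no value in replicate 3, the same sign as in the other SRC1 probes.

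**Figure D4:**
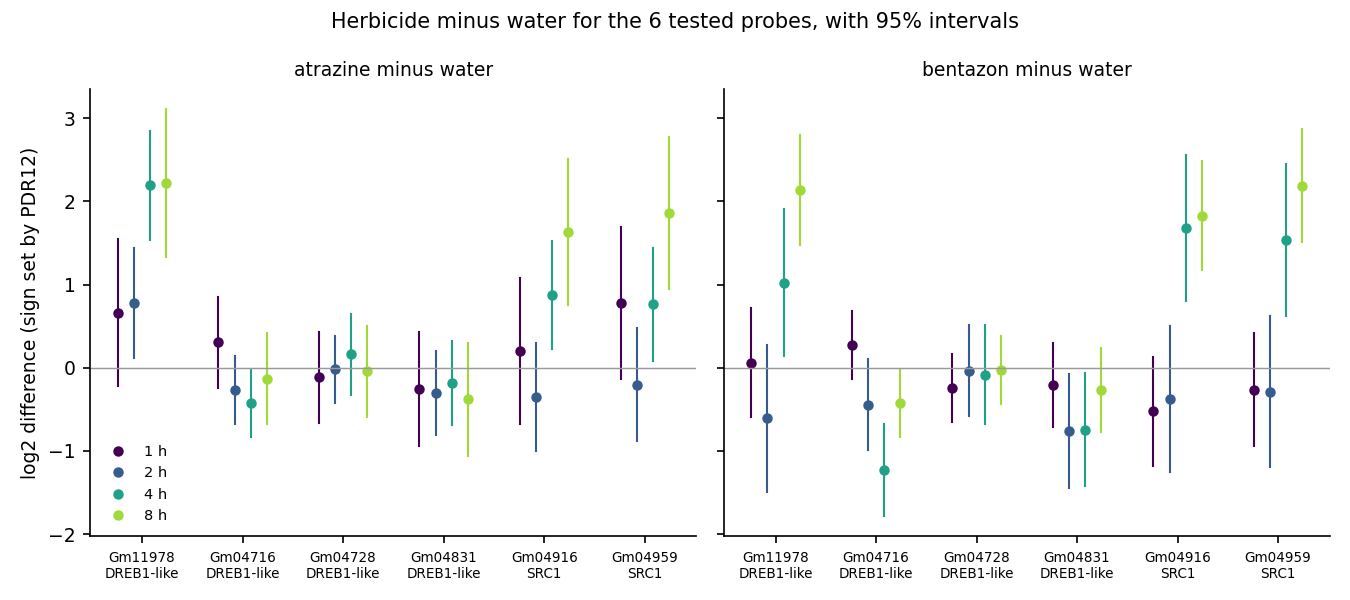
Herbicide minus water differences (log2, with 95% intervals of the fit) for the 6 tested probes at 1, 2, 4 and 8 h, atrazine on the left and bentazon on the right. At 8 h in atrazine the probe Gm11978 and both SRC1 probes lie between 1.63 and 2.22, and the other DREB1-like probes between -0.38 and -0.04. The bentazon values at 8 h were known when the genes were picked, and the path of the atrazine values at 8 h crosses the same arrays.

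Counts over the 6 tested probes can be read against the share of all tested probes that were called. Against water, atrazine had 0 of 6 at 1 h and 0 of 6 at 2 h, where 3.4% and 5.24% of all probes were called in limma, and no member had an unadjusted p under 0.05 at 1 h. At 2 h 1 member, Gm11978, had an unadjusted p of 0.0218. At 4 h 1 of 6 was called, on the positive side, where 17.9% of all probes were called and 9.14% on that side. At 8 h 3 of 6 were called, all positive, where 11.7% were called and 5.64% on that side; the choice of the genes feeds this count, so nothing is read from it. Bentazon had 0 of 6 at 1 h (3.35% of all probes) and 0 of 6 at 2 h (7.58%), with 0 and 1 at an unadjusted p under 0.05. At 4 h it had 3 of 6, with 2 positive and 1 negative, where 13.4% of all probes were called, 6.99% positive and 6.41% negative.

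Between atrazine and bentazon, 1 of 6 probes was called at 2 h and 2 at 4 h, all positive. None was called at 1 h, where 2 had an unadjusted p under 0.05, or at 8 h, where none had. The shares of all probes at the 4 times were 5.84%, 9.62%, 10.8% and 6.25%, of which 4% at 2 h and 4.99% at 4 h were on the positive side. The time comparisons with calls were nearly all those that end at 8 h. From 4 to 8 h 3 of 6 were called in water (7.77% of all probes, 3.49% on the positive side), 3 in atrazine (4.6%, 1.68%) and 2 in bentazon (5.97%, 2.81%), all positive. The arrays or RNAs that picked the genes enter each of these 3 counts, and nothing is read from them. From 1 to 8 h 1 of 6 was called in water (1.68%, 0.662%), 3 in atrazine (33.3%, 17.4%) and 3 in bentazon (13.9%, 7.71%), again all positive. The water and bentazon counts share RNA with the choice of the genes, and the water path also crosses the arrays that picked them. The exception was Gm04716 from 2 to 4 h in bentazon, where 6.27% of all probes were called, 2.6% on its negative side. No member was called from 2 to 4 h in atrazine, where 0.0117% of all probes were, or from 1 to 2 h in any treatment, where no probe of the array was (unadjusted p under 0.05 in 0 of 6 members). From 2 to 4 h in water 0 of 6 were called and 2, both of SRC1, had an unadjusted p under 0.05. The change from 1 to 8 h did not pass the test between atrazine and water (0 of 6, 3.58% of all probes) or between atrazine and bentazon (0 of 6, 3.7%), with 2 members each at an unadjusted p under 0.05. The path of the comparison with water crosses the arrays that picked the genes.

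The agreement of the probes with each other was described by Pearson's r, without a test. The SRC1 probes Gm04916 and Gm04959 had r = 0.983 over the 12 fitted levels and 0.949 over the 36 arrays. Gm11978 had r = 0.745 and 0.803 with them over the levels, and 0.591 and 0.609 over the arrays. With the other DREB1-like probes the r of Gm11978 over the levels was 0.135 (Gm04716), -0.296 (Gm04728) and -0.0527 (Gm04831). All of these values share arrays and RNAs, so the points are not independent.

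**Figure D5:**
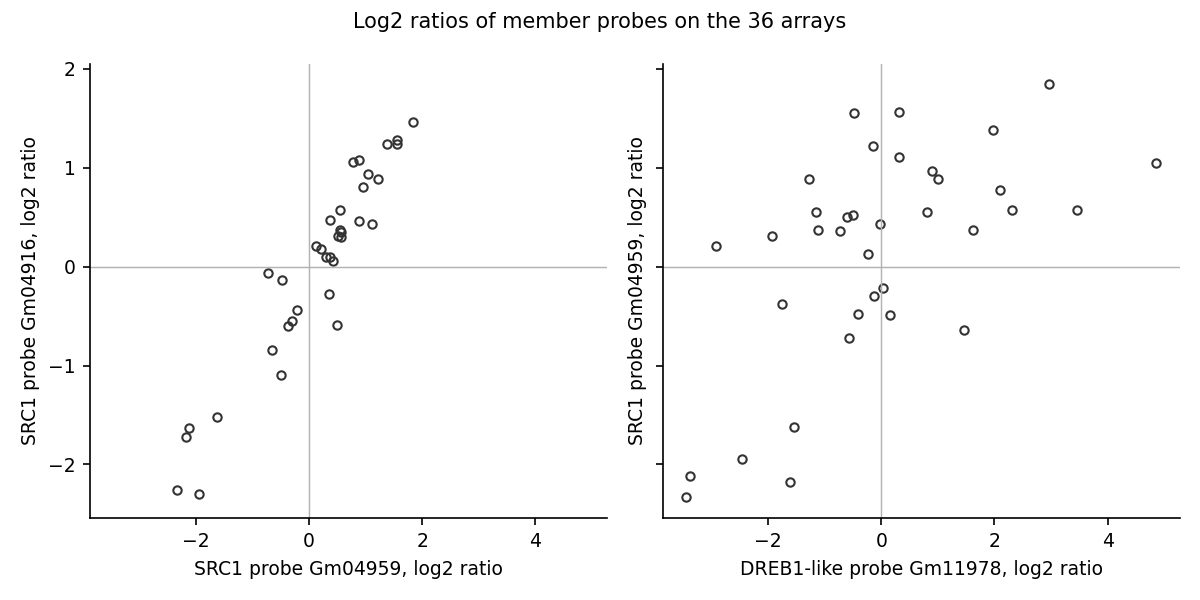
Log2 ratios of member probes on the 36 arrays, each point 1 array: SRC1 probe Gm04916 against SRC1 probe Gm04959 on the left (r = 0.949) and SRC1 probe Gm04959 against DREB1-like probe Gm11978 on the right (r = 0.609). The left points lie close to a line, and the right points spread more widely.

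Other single named genes whose fitted levels over the 12 RNAs were most like each member's were listed by Pearson's r, among 1058 probes for DREB1-like and 1060 for SRC1. These r values are the highest of that search, and each was lower over the arrays. For Gm11978 these were GDH1, a glutamate dehydrogenase gene (0.964), LOC548038, whose synonym in the gene table is TCTP (0.943), and LOC100037476 (0.929). Their own levels spanned 1.42, 1.41 and 2.06, less than the 5.08 of Gm11978. For SRC1 the same 3 probes came first in both Gm04916 and Gm04959, namely PRO2, a profilin gene (0.943 and 0.944), LOC547576, with the synonym GSTU3 (0.892 and 0.922), and IMPDH1 (0.861 and 0.917). Over the arrays their r was 0.642 and 0.684, 0.566 and 0.605, and 0.388 and 0.428, in that order. Their own levels spanned 0.71, 0.54 and 0.95. Gm04716 was most like EN2 (0.909), the aquaporin gene PIP2-6 (0.907) and LOC100037461 (0.885). Gm04831 was most like LOC732542 (0.882), MYB68 (0.868) and the metal transporter gene DMT1 (0.845). For Gm04728, the probe with the narrowest span, the highest r was 0.809 (LOC547632), followed by LOC100101868 (0.706) and CHI3A1 (0.691), with array values of 0.082, 0.125 and 0.104.

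Further genes of the same pathways were counted from lists by symbol, with the members left out. Among other AP2 factors, 6 probes of DREB1, DREB3 and EREBP1 were tested. In atrazine against water 1 was called, at 4 h and negative (17.9% of all probes called). In bentazon 1 at 2 h (7.58%) and 2 at 4 h (13.4%) were negative and 1 at 8 h (16.3%) was positive. The largest were DREB3 probes, Gm06102 at -1.56 ± 0.444 (limma adjusted p = 0.0173) in bentazon at 4 h and Gm00613 at 1.13 ± 0.358 (adjusted p = 0.0291) in bentazon at 8 h. The median of the list in atrazine against water at 8 h was -0.07, beside 0.03 over all probes. The DREB1 probe Gm01343, named after its values were seen, was positive at 8 h against 1 h in water (1.10, adjusted p = 0.0496), atrazine (1.07, 7e-06) and bentazon (1.34, 0.00069). Of the 6 probes of the list, these comparisons called 1 in water (1.68% of all probes), 3 in atrazine (33.3%) and 1 in bentazon (13.9%), all positive. The DREB3 probe Gm00613 was negative in water, at -1.85 (limma adjusted p = 0.133), and not called.

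Dehydrins, late embryogenesis abundant and cold proteins are the kind of product that DREB1 factors control in Arabidopsis. This list held 36 probes of 16 genes. Of its 35 tested probes, none was called by limma in atrazine against water at 8 h, and 6 had an unadjusted p under 0.05. The list was matched by symbol and also holds genes of other kinds, RAB2, a small GTPase gene, and PM37, a chaperone gene. Whether PM34, named below, is a dehydrin, late embryogenesis abundant or cold protein was not checked. In bentazon at 8 h 4 were positive and none negative, where 16.3% of all probes were called, and in atrazine at 4 h 5 were positive and 1 negative, where 17.9% were. The list's median at 8 h was 0.17 in atrazine and 0.13 in bentazon, beside 0.03 and 0.02 over all probes. Its largest differences came earlier, in PM37 at 1 h in atrazine (3.01 ± 0.609, limma adjusted p = 0.00425) and PM34 at 2 h in bentazon (2.97 ± 0.4, adjusted p = 7.08e-06). From 1 to 8 h in atrazine 5 were positive and 12 negative, where 33.3% of all probes were called, with a median of -0.16.

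The list of osmolyte and antioxidant enzymes held 33 probes of 13 genes, so several calls can be of 1 gene. Of its 30 tested probes, 2 were positive and 8 negative in atrazine at 8 h (11.7% of all probes called), and 3 and 8 in bentazon at 8 h (16.3%). The largest were probes of MIPS, which makes inositol phosphate, at -3.73 ± 0.542 (Gm05530, limma adjusted p = 1.62e-05) and -3.55 ± 0.526 (Gm11041, adjusted p = 2.43e-05) in atrazine at 8 h. In the water course from 4 to 8 h, 10 of these probes were negative and none positive (7.77% of all probes called), with a median of -0.50. These 10 probes lay on the other side of 0 from Gm11978 over the same step.

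The list for abscisic acid and dehydration signalling was matched by symbol, and whether each gene acts there was not checked. It held 9 probes of only 4 genes, so several calls can be of 1 gene. Of its 8 tested probes, 5 were positive in bentazon at 2 h and none negative (7.58% of all probes called). The median was 1.35, beside -0.05 over all probes. At 4 h 5 were positive and 2 negative (13.4%), and at 8 h 1 and 1 (16.3%). The largest were SARK, a receptor-like kinase gene named for leaf senescence, at 4.53 ± 0.612 in bentazon at 4 h (limma adjusted p = 6.3e-06), and CDPK-GAMMA, a calcium-dependent protein kinase gene, at 1.87 ± 0.36 in bentazon at 2 h (adjusted p = 0.000744). From 4 to 8 h the list had 3 negative and no positive calls in atrazine (4.6%), and 4 and none in bentazon (5.97%), the comparisons in which the called members were positive.

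Other stress transcription factors (zinc finger, bZIP, NAC, MYB, WRKY and heat shock factors) numbered 54 tested probes. In atrazine against water 5 were positive at 2 h (5.24% of all probes called), and 7 positive and 1 negative at 4 h (17.9%). In bentazon 4 were positive and 2 negative at 2 h (7.58%), and 7 and 2 at 4 h (13.4%). At 8 h the calls were 3 positive and 3 negative in atrazine (11.7%), and 1 and 4 in bentazon (16.3%). The largest were BZIP126 (2.93 ± 0.286, limma adjusted p = 5.24e-08) and WRKY27 (2.54 ± 0.431, adjusted p = 0.000151), both in bentazon at 2 h.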

How the data were processed

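The authors deposited log ratios of each array, treated as log2; the base, the numerator and any normalization by the authors were not given in these sources. Per the labels' protocols, RNA was extracted with Trizol and labelled through aminoallyl-dUTP. A probe was tested where each of the 12 hybridisation types had values on 2 or more arrays. A linear model with 11 RNA differences and 1 dye term was fitted per probe, and limma 3.58.1 (R 4.3.3) moderated the variances, with 24 residual df and a prior of 7.56 df. Calls were made at an adjusted p of 0.05 (Benjamini-Hochberg over 17062 probes, per comparison). The model code was run on simulated data with independent noise on each array and changes only in bentazon at 8 h. That setting left out variance between RNA extracts and unequal array quality, so it does not bear on these. Members and lists were chosen with earlier results of these data known. Named genes were the members, the 3 most alike single named genes per tested member, and the 2 largest called herbicide differences per list. Deviations of arrays of 1 replicate number without shared RNA had a median r of 0.0109, with a range from -0.409 to 0.431. Values of opposite sign cancel in a median, so this does not decide whether the replicate numbers paired arrays beyond shared RNA. Alternatives covered scaling, weights, centring, prior, dye, extracts, filters and arrays left out. Figures used matplotlib 3.10.9.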

Additional observations from a re-analysis of the deposited data

Results flagged for a closer look

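Between the herbicides, a test of the difference itself passed for 3 values. The atrazine minus bentazon difference of the DREB1-like probe Gm11978 was 1.39 at 2 h and 1.17 at 4 h, and that of Gm04716 was 0.80 at 4 h. The SRC1 probe Gm04916 had atrazine minus water differences that were positive in all 3 replicates at 1 h (0.20), 4 h (0.87) and 8 h (1.63) and negative in all 3 at 2 h (-0.35). The change from 1 to 8 h of this difference was 1.43 with a limma adjusted p of 0.151, and differences between the 2 h value and those of the other times were not tested. The 8 h value and the change from 1 to 8 h come from paths that cross the arrays that picked the genes.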

How the results depend on the processing

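No called value of a member changed sign under any alternative run. The number of probes called at any time was 3 for atrazine against water, 3 for bentazon against water at 1, 2 and 4 h, 2 for atrazine against bentazon, 3 for water times, 3 for atrazine times and 4 for bentazon times. With 1 replicate left out these ranged from 1 to 3, 0 to 3, 0 to 3, 1 to 3, 1 to 3 and 1 to 4, in that order. Leaving out replicate 1 gave the lowest count of each, with fewer arrays and a test that called fewer probes of the whole array. For atrazine against bentazon the count was 4 with array weights, 1 with only probes that have a value on every array (which drops Gm04716), and 4 without the 4 h against 8 h water array of replicate 2, an alternative chosen after seeing the data; apart from the dropped probe, the cause was not tested. The replicate block left all 6 counts as they were, at 3, 3, 2, 3, 3 and 4. For Gm11978, atrazine against water at 4 h (2.04 to 2.28) and atrazine from 1 to 8 h (2.87 to 4.13) were called in every alternative run. So were water from 4 to 8 h (2.54 to 3.08) and bentazon from 4 to 8 h (3.36 to 4.80) and from 1 to 8 h (3.58 to 4.85). The water and bentazon values share RNA with the choice of the genes, and the bentazon path from 4 to 8 h crosses the arrays that picked them. Their calls in every run are therefore not independent of that choice. Apart from the left-out replicates, calls of Gm11978 were lost for atrazine against bentazon at 4 h with each loop solved alone (1.17, adjusted p = 0.104) and on direct arrays only (1.23, 0.0861), and for water from 1 to 8 h with arrays scaled to a common spread (1.94, 0.0628) and without the 1 h against 2 h water arrays (1.96, 0.304). Of SRC1, Gm04916 and Gm04959 lost calls under these same alternatives in 11 cases, with adjusted p values from 0.0537 to 0.188. Gm04716 lost calls in 6 cases, with array weights, on direct arrays only or with each loop solved alone, with adjusted p values from 0.0614 to 0.428. Their causes were not tested. No intensities were used, so what spot brightness limits is not known.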
